A study of Mus musculus with 8 samples.

Results

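S100a8, S100a9, S100a6 and Slpi were followed across the cells of tumour-bearing mouse liver, 4 genes of the 33696 listed in each of 6 droplet single-cell RNA libraries. The genes were taken by symbol, and they had been picked because earlier readings of these libraries showed their levels across cell classes, so those levels are given as a description without a test. Tumours were induced in male C57BL/6 mice aged 8 to 10 weeks by hydrodynamic tail vein injection of CRISPR-Cas9 plasmids with a guide against Trp53, a c-Myc transposon and the SB13 transposase under a CMV promoter, and livers were taken 4 to 5 weeks later. All mice carried Nr4a1 fl/fl. The 3 control libraries came from Ncr1WT mice without Cre, and the 3 knockout libraries from Ncr1iCre mice, in which Cre is driven by Ncr1, a gene active in natural killer cells (NK) and type 1 innate lymphocytes (ILC1). Control 3 was a pool of 3 mice and knockout 3 a pool of 2 mice, and for the other libraries the labels name no animals, so p-values measure only the spread between these libraries. The whole liver was dissociated without a sort that the labels name, so the libraries hold tumour, parenchymal and immune cells together.

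S100a8 and S100a9 encode small calcium-binding proteins that pair as calprotectin, an abundant protein of the neutrophil cytosol that binds zinc and manganese and, once released, acts on the receptors TLR4 and RAGE. In the mouse the pair is switched on as granulocytes mature, and it is also known from some monocytes. S100a6 encodes calcyclin, a related calcium sensor of many cell types that binds annexins and Cacybp. Slpi encodes secretory leukocyte protease inhibitor, a whey acidic protein domain protein that blocks neutrophil elastase and cathepsin G.

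S100a6 (ENSMUSG00000001025), S100a8 (ENSMUSG00000056054) and S100a9 (ENSMUSG00000056071) lie on chromosome 3 and Slpi (ENSMUSG00000017002) on chromosome 2. In RefSeq gene order S100a8 and S100a9 are direct neighbours, with Gm19739 and S100a7a between them and S100a6. Promoter windows of RefSeq on GRCm38.p6, from 250 bases before to 50 bases after the annotated start, were found for 4 of 4 genes and are shown because S100a8 and S100a9 follow each other across the classes below while their neighbour S100a6 does not. The windows are chr3:90668821-90669120 on the plus strand for S100a8, chr3:90695672-90695971 on the minus strand for S100a9, chr3:90612644-90612943 on the plus strand for S100a6 and chr2:164356458-164356757 on the minus strand for Slpi. Each is written 5′ to 3′, and capitals mark TATAAA and TTNNGNAA, a loose form of the letters bound by factors of the C/EBP family, on either strand.
S100a8: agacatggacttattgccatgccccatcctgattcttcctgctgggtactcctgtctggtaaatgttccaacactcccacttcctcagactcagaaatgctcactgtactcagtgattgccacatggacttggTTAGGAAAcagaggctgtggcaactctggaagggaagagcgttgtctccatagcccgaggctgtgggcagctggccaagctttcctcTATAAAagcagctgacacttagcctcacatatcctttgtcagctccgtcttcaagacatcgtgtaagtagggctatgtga
S100a9: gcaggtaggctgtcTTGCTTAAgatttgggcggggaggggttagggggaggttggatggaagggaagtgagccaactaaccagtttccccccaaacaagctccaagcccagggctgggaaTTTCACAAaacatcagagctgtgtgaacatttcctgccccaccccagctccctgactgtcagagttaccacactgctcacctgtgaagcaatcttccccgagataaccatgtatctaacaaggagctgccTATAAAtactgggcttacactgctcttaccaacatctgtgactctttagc
S100a6: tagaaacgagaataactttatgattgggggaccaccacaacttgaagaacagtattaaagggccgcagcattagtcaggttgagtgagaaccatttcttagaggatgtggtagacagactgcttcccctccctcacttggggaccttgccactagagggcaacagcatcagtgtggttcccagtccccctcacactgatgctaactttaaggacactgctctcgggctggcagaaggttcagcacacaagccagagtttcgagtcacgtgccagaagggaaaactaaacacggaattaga
Slpi: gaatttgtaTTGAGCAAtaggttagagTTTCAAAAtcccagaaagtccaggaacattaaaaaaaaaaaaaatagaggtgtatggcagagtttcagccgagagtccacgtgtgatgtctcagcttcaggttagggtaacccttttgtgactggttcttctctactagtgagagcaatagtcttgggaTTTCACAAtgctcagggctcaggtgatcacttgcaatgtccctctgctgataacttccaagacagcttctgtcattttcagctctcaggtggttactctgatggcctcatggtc
TATAAA was found in the windows of S100a8 (first base at position -30, counted from the annotated start at 1) and S100a9 (position 1), and not in those of S100a6 and Slpi. It was present in 13.6% of 32851 promoter windows of the same length. TTNNGNAA was found 1 time in the window of S100a8, 2 times in that of S100a9 and 3 times in that of Slpi, and in 40.7% of all windows. The letters TTTCACAA occurred in both the S100a9 window (position -130) and the Slpi window (position -64). GAGGAA, the core of the PU.1 site, was found 2 times near S100a8 and in none of the other 3 windows, against 28.3% of all windows. None of the matches overlapped another. TGANTCA (7.81% of all windows), TTCNNNGAA (8.30%) and TGACNNNGC (12.4%) were found in none of the 4. A match is a description of letters and not a bound site.

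After filtering, 20081 cells were kept, with 134 to 9180 cells and 887170 to 81570086 UMIs (unique molecular identifiers, 1 per captured RNA molecule) per library. The libraries numbered 2 stood apart: knockout 2 gave 134 cells and control 2 gave 547, and barcodes with 500 or more UMIs had a median mitochondrial share of 75.1% and 27.9% there, against 6.68% to 10.0% in the other libraries. At most 14 cell barcodes were shared by any pair of libraries. Classes were called cell by cell from UMIs of marker genes that did not include the 4 genes. This gave 1437 monocytes, 373 neutrophils, 1989 hepatocytes and 9254 lymphocytes (3917 T, 1386 NK or ILC1 and 3951 B cells), and 4590 cells were left uncalled. Each of the 11 neutrophil markers, among them Retnlg, Cxcr2, Csf3r and Camp, was highest in the cells called neutrophils. Of the 8 classical monocyte markers 5 were highest in the cells so called, while Ly6c2 was highest in granulocyte progenitors, Chil3 in neutrophils and Csf1r in nonclassical monocytes. Where 3 values stand for a group below, they follow libraries 1, 2 and 3. In NK or ILC1 cells Nr4a1 stood at 82.4, 30.7 and 57.2 counts-per-million of the UMIs of the class (CPM) among control libraries, against 139, 7.11 and 73.9 CPM among knockout libraries. The 7.11 CPM of knockout 2 was 1 UMI in 32 cells, below the 3 UMIs used as a floor. These 3′ counts do not check the deletion, because the position of the floxed part relative to the reads is not given in the sources used here.

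Calprotectin was a neutrophil-lineage transcript in these livers. Of 122180 S100a8 UMIs, 69.9% lay in neutrophils and 23.1% in 35 granulocyte progenitors, cells with Elane, Mpo and Prtn3, which are enzymes of the earliest granules. Of 163421 S100a9 UMIs, 74.1% and 18.2% lay in these classes. The progenitor share rested on knockout 1, which held 22827 of the 28226 progenitor UMIs of S100a8. In that library progenitors held 59.6% and neutrophils 38.3% of the S100a8 UMIs. Without it the shares were 6.44% and 84.4% for S100a8 and 4.49% and 85.9% for S100a9. Neutrophils held 0.598% of all UMIs. Uncalled cells held 5.32% of the S100a8 and 6.11% of the S100a9 UMIs, and 189 of these cells, each with 3 or more neutrophil marker UMIs, carried 85.1% of their calprotectin. Hepatocytes held 58.1% of all UMIs but 0.623% of the S100a8 and 0.528% of the S100a9 UMIs. Classical monocytes held 0.356% and 0.231%.

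**Figure D1:**
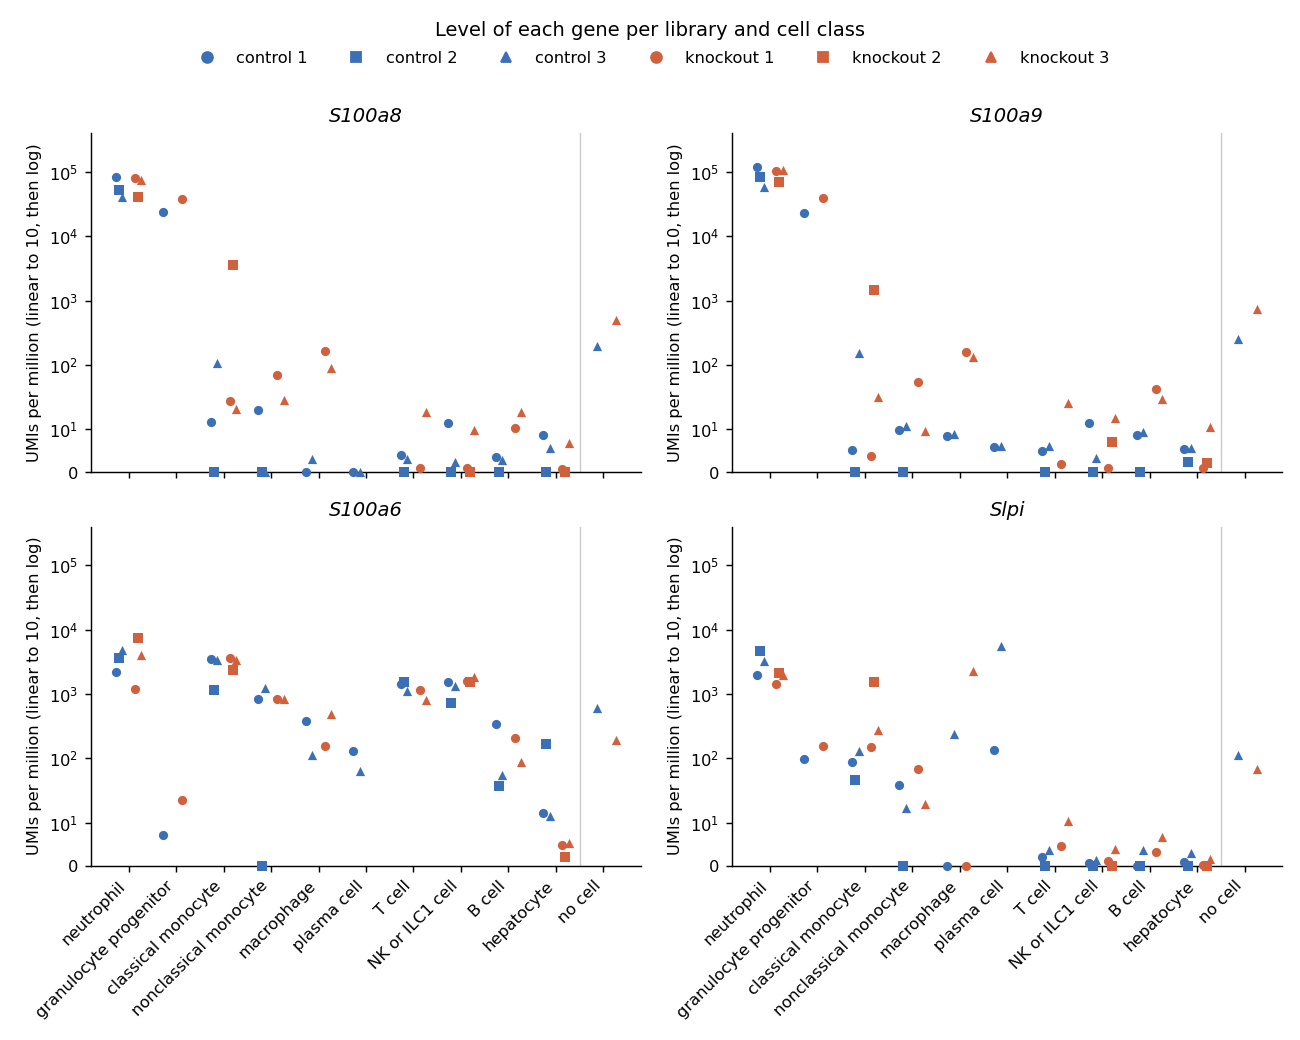
Level of each gene in CPM (vertical axis, linear to 10 and then logarithmic) in 10 cell classes and in barcodes without a cell (horizontal axis). Each point is 1 library with at least 10 cells of the class, blue for control and orange for knockout, with the replicate number as shape, and the points without a cell exist for replicate 3 only. S100a8 and S100a9 stand highest in neutrophils and granulocyte progenitors, while S100a6 spreads over neutrophils, monocytes, T cells and NK or ILC1 cells.

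In neutrophils S100a8 stood at 83051, 51390 and 41082 CPM among control libraries, against 78944, 40304 and 74396 CPM among knockout libraries. S100a9 stood at 118168, 82397 and 58593 CPM under control and at 103342, 68462 and 106347 CPM under knockout. The groups overlapped for both genes, and no library lacked them. S100a9 gave 1.42 UMIs for each S100a8 UMI over all neutrophils, with 1.31 to 1.70 over the 6 libraries. A UMI of S100a8 was found in 96.8% and one of S100a9 in 97.9% of neutrophils.

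The neutrophils were not uniform. A split made after the data were seen set apart 42 neutrophils with more UMIs of the granule genes Ngp, Ltf and Camp than of the mature-cell genes Retnlg, Cxcr2, Csf3r, Mmp9 and Il1r2. They came from control 1 (15 cells), knockout 1 (9 cells) and knockout 3 (18 cells). These granule-gene neutrophils had 120710 CPM of S100a8, 162448 CPM of S100a9, 1283 CPM of S100a6 and 269 CPM of Slpi. The other 331 neutrophils had 41259, 62712, 4717 and 3311 CPM of the same genes in the same order. The median depth was 7770.5 UMIs per granule-gene cell and 2398 UMIs per other cell. Within neutrophils, cells rich in granule transcripts thus had more calprotectin and less S100a6 and Slpi, in each of the 3 libraries that held both kinds. In granulocyte progenitors, S100a6 was at 7.03 and 22.9 CPM in control 1 and knockout 1, the 2 libraries with 10 or more such cells, and Slpi at 98.5 and 158 CPM.

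In monocytes most calprotectin UMIs lay in very few cells, while in hepatocytes and lymphocytes more were spread thinly. Among 1437 monocytes, 4 cells had 10 or more S100a8 and S100a9 UMIs together, and these 4 held 83.6% of the calprotectin UMIs of the class. All 4 also had UMIs of neutrophil markers, 54 in all, as did 40.3% of the other monocytes. Retnlg, a neutrophil transcript, gave 8 UMIs in all monocytes against 5860 in neutrophils. Among 1989 hepatocytes 6 cells reached 10 calprotectin UMIs and held 58.9% of the class total. All 6 had neutrophil marker UMIs, against 7.87% of the other hepatocytes. Among 9254 lymphocytes 6 cells did so, with 30.6% of the class total, and 4 of them had neutrophil marker UMIs, against 3.75% of the others. The remaining 2 were NK or ILC1 cells of control 1 with 15 calprotectin UMIs each and no neutrophil marker UMI. At least 1 UMI of S100a9 was found in 311 hepatocytes and 303 lymphocytes. Whether such cells are neutrophils captured with another cell was not tested.

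**Figure D2:**
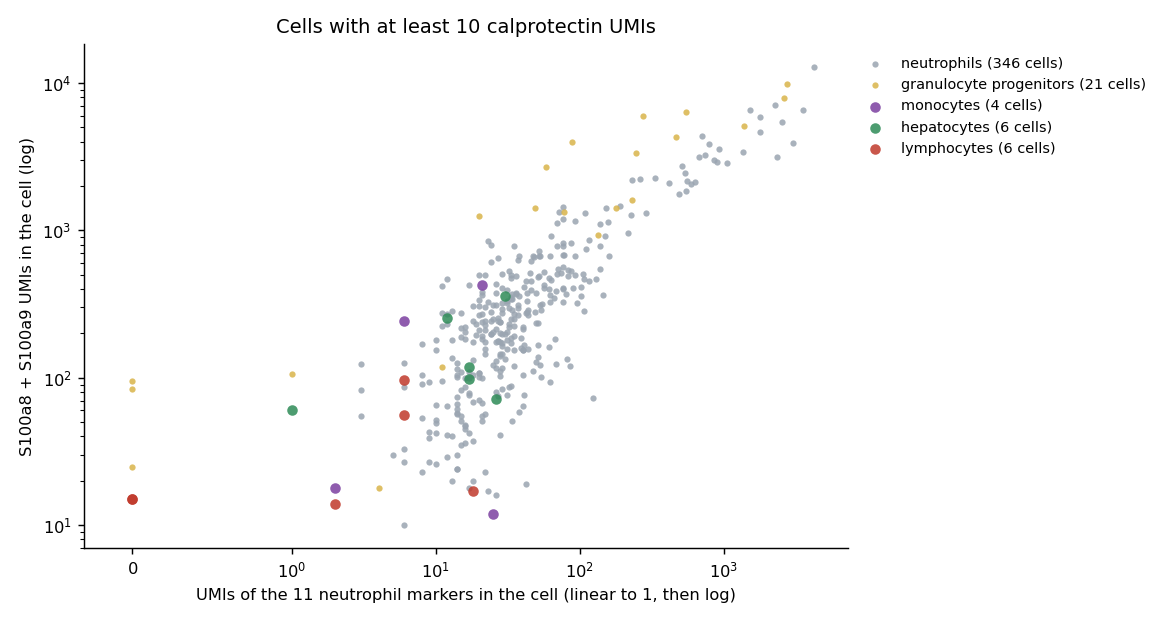
Cells with at least 10 calprotectin UMIs, with the S100a8 and S100a9 UMIs of the cell (vertical axis, logarithmic) against its UMIs of the 11 neutrophil markers (horizontal axis, linear to 1 and then logarithmic). Each point is 1 cell and the colour is its class. The 4 monocytes, 6 hepatocytes and 6 lymphocytes lie mostly among the 346 neutrophils, and 2 lymphocytes, whose points coincide at 15, lie at 0 neutrophil markers.

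In monocytes S100a8 stood at 13.7, 0 and 97.1 CPM among control libraries, against 30.1, 3518 and 21.8 CPM among knockout libraries. The count of 0 in control 2 came from 27 cells and allows a level of up to 71.3 CPM. S100a9 stood at 5.70, 0 and 140 CPM under control and at 7.66, 1473 and 29.0 CPM under knockout. Knockout 2 was high for both, and 1 of its 15 monocytes held 171 of its 172 S100a8 UMIs and all 72 S100a9 UMIs. The value of control 3 rested on 1 cell with 167 S100a8 and 261 S100a9 UMIs. Without the top cell of each library, S100a8 stood at 0 to 11.4 CPM in the controls and 20.7 to 24.8 CPM in the knockouts. The 24.8 CPM of knockout 2 was the only UMI left of its 172, below the 3 UMIs used as a floor. Control 2 had no UMI to begin with, and the share of all genes with this order was not computed without the top cells.

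A UMI of S100a8 was found in 5.50% of monocytes and one of S100a9 in 3.06%, with a median of 3020 UMIs per cell. In lymphocytes, which are not known for calprotectin, the shares were 1.80% and 3.27% with a median of 3380 UMIs per cell. In hepatocytes they were 11.6% and 15.6% with a median of 63139 UMIs per cell. S100a9 was thus no more frequent in monocytes than in lymphocytes, and the depth of hepatocytes differs too far for their shares to be ordered. Once each cell was thinned to 1000 UMIs, S100a8 was seen in 1.27% of the monocytes of control 3 and 3.88% of those of knockout 3, and in 0.416% and 1.79% of their lymphocytes.

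Barcodes with at most 100 UMIs, listed for the replicate 3 libraries, are too poor to hold a cell and were used to measure RNA outside cells. S100a8 made up 197 CPM of this RNA in control 3 (95% exact Poisson interval 181 to 214, which covers counting error only) and 494 CPM in knockout 3 (473 to 515). S100a9 made up 256 and 749 CPM. From barcodes with at most 50 UMIs the levels were 199 and 898 CPM for S100a8 and 259 and 1328 CPM for S100a9. These poorer barcodes held 2906757 of the 2965262 UMIs in control 3 and 1619640 of the 4507271 UMIs in knockout 3. The levels of knockout 3 thus depended on the limit. Monocytes of the same libraries, at 97.1 and 21.8 CPM of S100a8, lay below the RNA outside cells at either limit. So did hepatocytes at 5.57 and 6.81 CPM and lymphocytes at 2.91 and 17.2 CPM. Calprotectin transcripts in these 3 classes were thus no higher than in the free RNA of either library. Free RNA, hepatocytes and lymphocytes all held less S100a8 and S100a9 in control 3 than in knockout 3, and the part of free RNA in these class levels was not tested.

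In hepatocytes S100a8 stood at 8.60, 0 and 5.57 CPM among control libraries, against 0.759, 0 and 6.81 CPM among knockout libraries. Of the 249 UMIs of control 1, 222 were in 1 cell. In lymphocytes S100a8 stood at 8.33, 0 and 2.91 CPM under control and at 3.54, 0 and 17.2 CPM under knockout, and S100a9 at 9.52, 0 and 6.58 CPM and at 12.6, 6.53 and 25 CPM. The groups overlapped in each case.

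S100a6 had another distribution. Of its 83625 UMIs, 29.7% lay in T cells, 21.5% in classical monocytes, 16.6% in uncalled cells, 14.9% in NK or ILC1 cells, 5.45% in neutrophils and 1.48% in hepatocytes. The order differed between libraries, and control 3 held 39892 of these UMIs. T cells held 38.9% in control 3, 28.3% in knockout 1 and 13.4% in control 1, where classical monocytes held 15.1%, 39.5% and 25.1%. Without control 3, classical monocytes held 27.2% and T cells 21.3%. Monocytes had 3157, 594 and 3212 CPM among control libraries, against 3450, 2332 and 3081 CPM among knockout libraries. The low values came from the libraries numbered 2, with 27 and 15 monocytes. Classical monocytes stood above nonclassical monocytes in each of the 5 libraries that held 10 or more of both, for example at 3461 against 842 CPM in control 1 and at 3404 against 845 CPM in knockout 3. Neutrophils had 2203, 3630 and 4874 CPM in the controls and 1188, 7446 and 3977 CPM in the knockouts, and their range overlaps that of the monocytes, so the order of these 2 classes is not resolved. Over all libraries, 56 fibroblasts or stellate cells had 4358 CPM of S100a6, with a UMI in 87.5% of them.

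Among lymphocytes S100a6 stood at 1540, 719 and 1339 CPM in NK or ILC1 cells among control libraries, against 1618, 1537 and 1838 CPM among knockout libraries. In T cells it stood at 1422, 1508 and 1117 CPM among control libraries, while knockouts 1 and 3 gave 1144 and 807 CPM and knockout 2, with 4 T cells, was left out. T and NK or ILC1 cells overlapped. B cells, at 37.2 to 338 CPM over 5 libraries, lay below both. The free RNA held 605 CPM of S100a6 in control 3 and 180 to 206 CPM (95% interval of 870 UMIs) in knockout 3 (611 and 299 CPM from barcodes with at most 50 UMIs), below the monocytes, T cells and NK or ILC1 cells of the same libraries and above the hepatocytes.

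Of the other 13 S100 genes, S100a4, a motility-associated member, had a median over libraries of 1827 CPM in monocytes and 1.76 CPM in neutrophils. S100a11, a partner of annexins, had 912 and 3388 CPM, and S100a10, the annexin A2 ligand, had 643 and 6.21 CPM. Neutrophils thus carried S100a6 and S100a11 with calprotectin, at low levels of S100a4 and S100a10. Among the annexins, Anxa2 stood at a median of 523 CPM in monocytes, 425 CPM in neutrophils and 312 CPM in lymphocytes. Cacybp, the calcyclin-binding protein, had its highest median of the 4 classes in hepatocytes, at 362 CPM, while S100a6 had its lowest there, at 9.13 CPM.

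Slpi was found in neutrophils, at high counts in a few plasma cells and macrophages, and at lower pooled levels in several other classes. A UMI was found in 34.1% of 214 plasmacytoid dendritic cells (125 CPM) and 18.2% of 203 basophils or mast cells (115 CPM). The shares were 19.6% of 56 fibroblasts or stellate cells (400 CPM) and 68.6% of 35 granulocyte progenitors (162 CPM). Of the 11912 Slpi UMIs, 36.0% lay in 49 plasma cells, 24.6% in neutrophils, 11.2% in macrophages, 10.9% in uncalled cells and 7.05% in classical monocytes. The order rested on control 3, where plasma cells held 55.9% and neutrophils 17.6%. Without that library neutrophils held 29.5% and plasma cells 22.2%. Over the 6 libraries the neutrophil share ran from 17.6% to 83.8% and the plasma cell share from 0% to 55.9%, and the macrophage share was 27.2% in knockout 3 and at most 1.66% elsewhere. In plasma cells, antibody-secreting B-lineage cells, 12 cells with 10 or more Slpi UMIs held 99.6% of the class total, with 16 to 1846 UMIs each, and the 2 highest cells had 1846 and 1353 of the 4286 UMIs. In the highest cell Slpi made up 7.59% of all UMIs. The 12 cells came from 4 libraries. Over all plasma cells of a library Slpi stood at 136 CPM in control 1, 5496 CPM in control 3, 1308 CPM in knockout 1 and 15109 CPM in knockout 3. Each library total rested on 6 to 23 plasma cells, and in knockout 3 all 1353 UMIs were in 1 cell.

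The 12 Slpi-rich plasma cells, a group chosen by its Slpi, all carried Jchain, the joining chain of secreted antibodies, with a median of 801.5 UMIs, and none had a neutrophil marker UMI. Their median of IgG heavy chain UMIs was 1274.5 and of Igha, the IgA heavy chain, 0.5. The other 37 plasma cells had medians of 0 and 435. Among 171 macrophages 6 cells held 99.6% of the Slpi UMIs of the class, with 10 to 508 UMIs each. They had Saa3, Arg1, Prg4 and Fn1 at 9911, 5232, 1946 and 7303 CPM, against 104, 53.4, 18.1 and 152 CPM in the other macrophages. Single cells carried much of this, since 1 cell held 991 of the 1273 Saa3 UMIs (median 63.5) and 1 held 358 of the 672 Arg1 UMIs (median 79.5), although each of the 4 genes had a UMI in 6 of 6 cells. Clec4f, a Kupffer cell gene, gave no UMI in the 6 cells and 260 CPM in the other macrophages, of which 37 had a UMI. Cd5l, also a macrophage marker, had a UMI in 5 of the 6 cells, at 895 CPM against 1246 CPM in the others. Whether the 6 cells are Kupffer cells was not tested. The 6 cells came from control 3 and knockout 3.

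**Figure D3:**
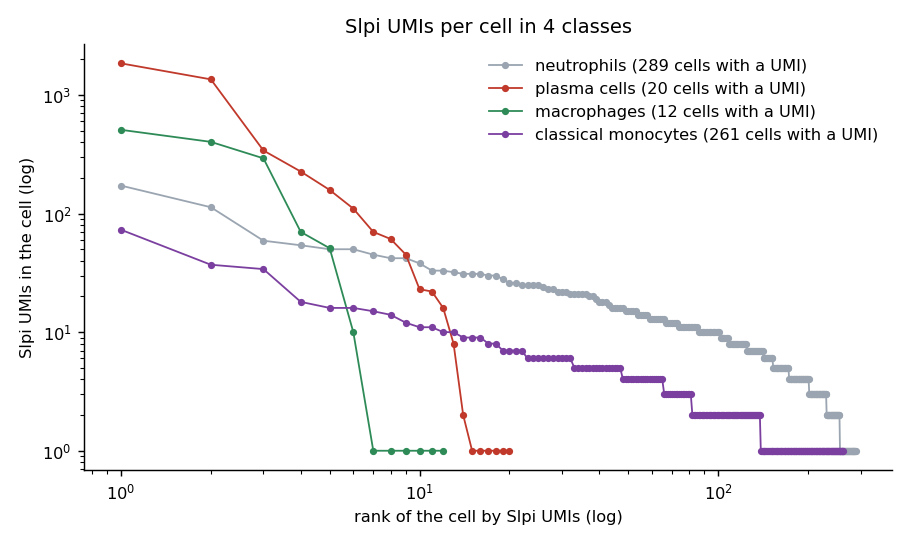
Slpi UMIs per cell (vertical axis, logarithmic) for cells with at least 1 Slpi UMI, ranked from the highest (horizontal axis, logarithmic), by class. Each point is 1 cell. Plasma cells and macrophages reach 1846 and 508 UMIs in a few cells and then drop to 1, while neutrophils and classical monocytes decline over 289 and 261 cells.

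In neutrophils Slpi stood at 1952, 4730 and 3263 CPM among control libraries, against 1446, 2097 and 1996 CPM among knockout libraries, and a UMI was found in 77.5% of the cells. Each knockout library lay below the control library with its number, although the groups overlapped. In monocytes Slpi stood at 82.0, 23.8 and 118 CPM under control and at 145, 1514 and 240 CPM under knockout. Each knockout library lay above every control library, but the separation rested on 1 cell of knockout 2, without which that library stood at 24.6 CPM, below control 1. A UMI was found in 19.1% of monocytes against 1.24% of lymphocytes. The free RNA held 114 CPM of Slpi in control 3 (102 to 127) and 68.8 CPM in knockout 3 (61.3 to 76.9). The level in monocytes of control 3, at 118 CPM (103 to 134), overlapped it, while that of knockout 3, at 240 CPM (207 to 275), lay above it. In control 3, 397 monocytes held 229 Slpi UMIs and 5185 lymphocytes held 80. The part of free RNA in the monocyte level was not tested. Hepatocytes stayed at 0 to 3.05 CPM and lymphocytes at 0 to 8.53 CPM, below the free RNA of replicate 3.

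Over 70 combinations of class and library in 17 classes, likeness was measured as Pearson's r of log2(CPM + 1) among 12558 genes, as a description, since these units share libraries and depth. The gene most like S100a8 was S100a9 (r = 0.95), followed by Clec5a, a myeloid lectin receptor (0.86), Mrgpra2b (0.85), Wfdc21 and Slc7a11 (both 0.83). For S100a9 the order was S100a8 (0.95), Mrgpra2b (0.87), Wfdc21 (0.86), Clec5a (0.83) and Slc7a11 (0.82). S100a6 was most like S100a11 (0.78), then Anxa2 and Isg15 (both 0.71) and Card19 and Metrnl (both 0.70). Slpi was most like Padi4, the citrullinating enzyme of neutrophils (0.74), then Trem1 (0.70), Gla and Clec4e (both 0.69) and Trib1 (0.68). Wfdc21, a whey acidic protein gene like Slpi, had a median of 1725 CPM in neutrophils and 6.18 CPM in monocytes.

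Knockout and control libraries were then compared in the 4 classes with the edgeR quasi-likelihood test on UMIs summed per library, over all genes that passed a filter on low counts. All 4 genes passed that filter in each class. The test called 0 of 7850 genes in monocytes, 0 of 2180 in neutrophils, 0 of 13575 in hepatocytes and 0 of 12002 in lymphocytes at an adjusted p under 0.05 (0% in each), and none of the 4 genes in any class. Of the 16 combinations of gene and class, the groups did not overlap in 2, Slpi in monocytes and S100a6 in hepatocytes. They overlapped for all 4 genes in neutrophils, where 2.84% of tested genes had every knockout library above and 3.44% below every control library, and in lymphocytes, where the shares were 3.02% and 2.81%. An unadjusted p under 0.05 was reached by 121, 21, 139 and 131 genes in the same order. DESeq2 also called 0 genes in each, with 35, 17, 88 and 43 genes at an unadjusted p under 0.05.

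In monocytes the log2 fold change of Slpi (knockout over control) was 2.46, standard error (SE) 0.76, by edgeR (adjusted p = 1). In this class 5.39% of tested genes had every knockout library above every control library and 2.18% had every one below. The size rested on knockout 2, where 1 of 15 monocytes held 73 of 74 Slpi UMIs. Without that library the fold change was 0.97, and without both libraries numbered 2 it was 0.80 (SE 0.28, adjusted p = 0.958). Libraries with the same number deviated together in monocytes, at correlations of 0.21 to 0.22 that have no baseline from other pairings. With the number as a block the fold change of Slpi was 1.47 (SE 0.32) and passed the test (edgeR adjusted p = 0.0103, higher in 3 of 3 pairs). The blocked fit called 10 genes, of which Arg1, Cxcl2, Thbs1, Vcan, Ccl2 and Hspb1 were also higher and Cxcl9, Ccl5 and Alb lower. In the blocked fit Slpi no longer passed without the cell with most calprotectin and the cell with most Slpi UMIs of each library (0.84, adjusted p = 0.459). Nor did it pass without pair 1 (2.42, adjusted p = 1), pair 2 (0.83, adjusted p = 0.0898) or pair 3 (2.30, adjusted p = 0.999), or with a tighter limit on markers of other classes (1.45, adjusted p = 0.116). It passed with hashtag multiplets left out (1.5, edgeR adjusted p = 8.57e-04).

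The make-up of the monocyte sums moved with group. The 8 classical monocyte markers summed to 3350 to 3572 CPM in the controls and 3928 to 8346 CPM in the knockouts, and the 8 nonclassical markers to 839 to 2661 CPM and 307 to 887 CPM, with 0 of 8 higher in the knockouts. Slpi stood at 163 CPM over all classical and 34.4 CPM over all nonclassical monocytes. Within classical monocytes alone, Slpi stood at 87.7, 46.3 and 128 CPM under control and at 152, 1514 and 271 CPM under knockout. Without the top cell of each library they stood at 83.3, 0 and 108 CPM and at 144, 24.6 and 226 CPM, and the groups overlapped. The 11 neutrophil markers summed to 71.3 to 177 CPM in the controls and 168 to 389 CPM in the knockouts, with 8 of 11 higher on average in the knockouts and 2 of 11 at 0. Of their 1139 UMIs in monocytes, Mmp8 gave 180, while Retnlg, Ngp, Camp, Ltf and Mmp9 gave 8, 2, 7, 13 and 4. Retnlg gave 6 UMIs in control 3, 2 in knockout 3 and 0 in the other libraries. The 16 hepatocyte markers summed to 309 to 1109 CPM in the controls and 202 to 744 CPM in the knockouts, with 4 of 16 higher in the knockouts, and Alb, the albumin of hepatocytes, was among the genes lower in the blocked fit. Their part in the Slpi result was not tested.

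**Figure D4:**
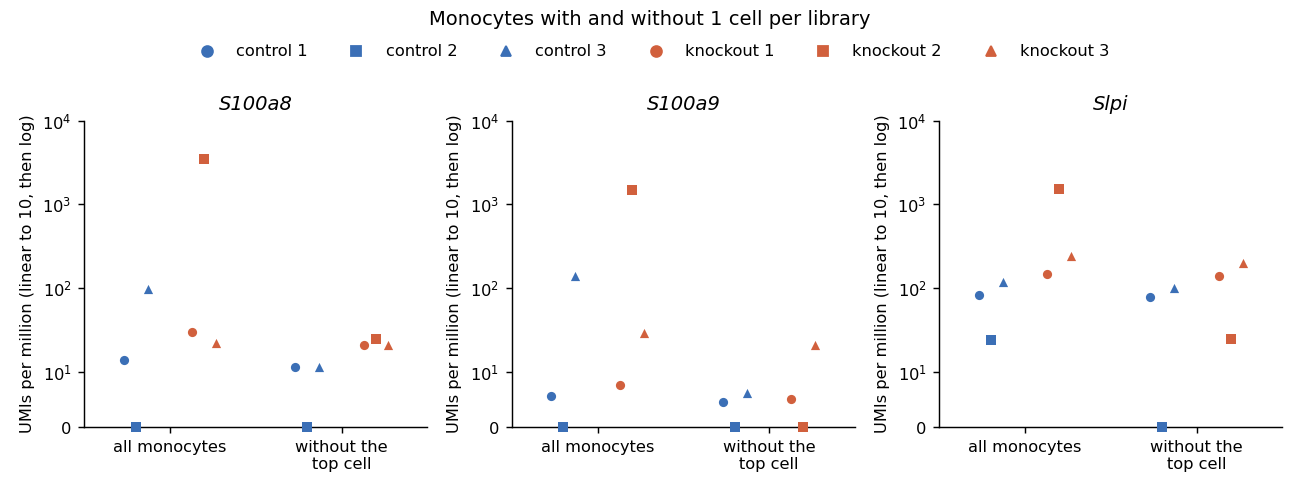
S100a8, S100a9 and Slpi in monocytes in CPM (vertical axis, linear to 10 and then logarithmic), with all cells and without the cell that holds most UMIs of the gene in each library (horizontal axis). Each point is 1 library, blue for control and orange for knockout. Knockout 2 falls from 3518 to 24.8 for S100a8 and from 1514 to 24.6 for Slpi when 1 cell is left out.

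S100a8 in monocytes had a log2 fold change of 4.19 (SE 1.52, edgeR adjusted p = 1) and S100a9 one of 2.19 (SE 1.44, adjusted p = 1). Without knockout 2 they were -1.12 and -2.23, and without control 3 they were 6.23 and 5.95. Each of these libraries rested on 1 cell, and without the top cell of each library neither gene passed the filter on low counts. S100a6 had a fold change of 0.21 (SE 0.83) in monocytes, and -0.07 (SE 0.16) without both libraries numbered 2.

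In neutrophils the log2 fold changes were 0.13 (SE 0.60) for S100a8, 0.10 (SE 0.59) for S100a9, 0.28 (SE 0.64) for S100a6 and -0.79 (SE 0.46, edgeR adjusted p = 1.00) for Slpi. Granule-gene neutrophils were counted in only 3 of the 6 libraries, and among the other neutrophils Slpi stood at 4671, 4730 and 3263 CPM under control and at 3271, 2097 and 2972 CPM under knockout. A direct test of the difference in the Slpi fold change between neutrophils and monocytes, with library as a block, gave -2.87 (SE 0.89), which did not pass over 4439 genes (edgeR adjusted p = 0.73).

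In hepatocytes S100a6 gave 72 of 435980 UMIs in control 2 (129 to 208 CPM by the exact Poisson interval) and stood at 14 and 12.9 CPM in controls 1 and 3. The knockout libraries stood at 4.78, 2.07 and 5.37 CPM, with every knockout library below every control library. In this class 1.95% of tested genes had that order and 1.48% the opposite one. The log2 fold change was -3.13 (SE 0.97, edgeR adjusted p = 1), and -1.37 (SE 0.23, adjusted p = 1.00) without both libraries numbered 2. In control 2, 1 cell held 64 of the 72 UMIs. With the block it was -1.82 (SE 0.43, adjusted p = 0.819). S100a10 and S100a11 had fold changes of -1.07 (SE 0.32) and -2.51 (SE 1.04) in hepatocytes, neither of which passed. In these sums the 12 T cell markers and the 12 NK or ILC1 markers, whose cells carry S100a6, lay at 9.17 to 39.3 and 3.21 to 33.1 CPM in the controls and at 6.21 to 19.3 and 0 to 7.28 CPM in the knockouts. Of these markers 0 of 12 and 1 of 12 were higher on average in the knockouts, and their part in the S100a6 values was not tested. S100a8, S100a9 and Slpi had fold changes of -0.70, 0.21 and -1.05 there.

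In lymphocytes S100a9 had a log2 fold change of 1.39 (SE 0.52, edgeR adjusted p = 1.00), S100a8 one of 1.16 (SE 0.79), Slpi one of 1.36 (SE 0.65) and S100a6 one of 0.01 (SE 0.28). B cells, which held little S100a6, made up 282 of 826, 26 of 185 and 2237 of 5185 lymphocytes in the controls. In the knockouts they made up 569 of 1278, 2 of 38 and 835 of 1742. The part of this mix in the S100a6 value was not tested. The 11 neutrophil markers lay at 1.45 to 9.82 CPM in the controls and 0 to 23.3 CPM in the knockouts, and 9 of 11 were higher on average in the knockouts.

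**Figure D5:**
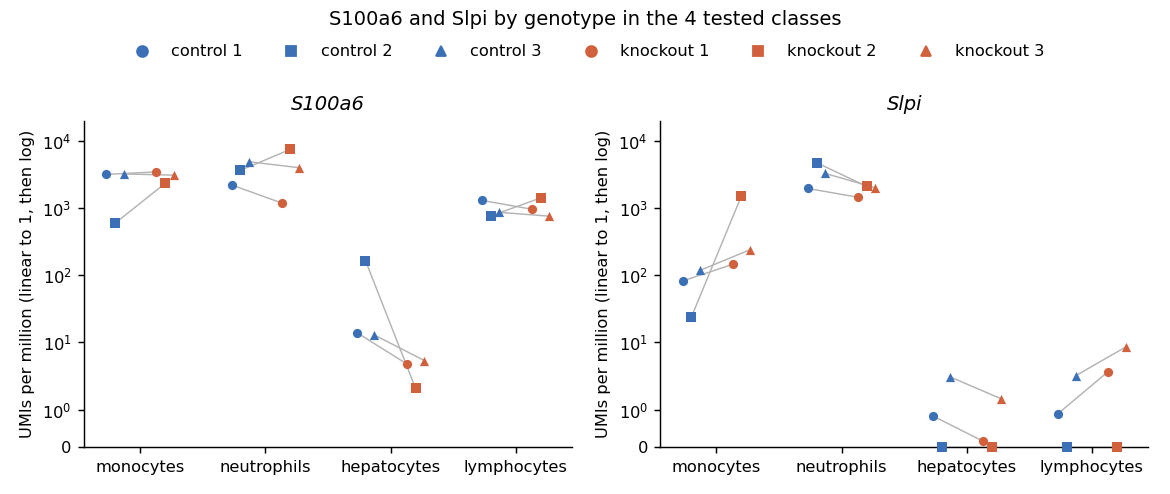
S100a6 and Slpi in CPM (vertical axis, linear to 1 and then logarithmic) by group in the 4 tested classes (horizontal axis). Each point is 1 library, and grey lines join the control and knockout libraries of the same number. Slpi in monocytes is higher in each knockout library than in every control library, and S100a6 in hepatocytes is lower in each. In neutrophils Slpi is lower only between libraries of the same number, and the groups overlap.

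None of the 8 gene lists of related function held a member that passed in any of the 4 classes. Of the calprotectin receptors and adaptors, 7 of 8 were tested in monocytes, with a median log2 fold change of -0.10 against 0 over all genes tested, and Cd14, a co-receptor of TLR4, had 0.83 (SE 0.46) and Cd36 -0.73 (SE 0.40). In neutrophils 4 of 8 were tested, with a median of 0.96 against -0.02, led by Alcam at 1.27 (SE 0.50) and Cd14 at 2.24 (SE 1.08). For Cd14 the value rested on the 11 neutrophils of knockout 2, at 3072 CPM, and knockout 1, at 48.4 CPM, lay below every control library (227 to 239 CPM). The S100a6 and S100a10 partners had a median of 0.14 in monocytes, where 6 of 6 were tested, and of -0.26 in neutrophils, where 4 of 6 were.

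Of 10 neutrophil granule and secretory genes, all were tested in neutrophils, with a median of 0.43, where Lcn2 had 0.92 (SE 0.86) and Mmp8 -0.73 (SE 0.49). In monocytes 5 of 10 were tested, with a median of 0.01. Of the 7 proteases that Slpi inhibits and granule enzymes, none was tested in neutrophils, and Prtn3, proteinase 3, had 0.91 (SE 0.44) in monocytes. Of the whey acidic protein genes, Wfdc17 had 0.40 (SE 0.59) in monocytes and 0.98 (SE 0.96) in neutrophils. The other S100 family members had a median of 0.31 in monocytes, where 5 of 13 were tested. Of the myeloid transcription factors, Irf8 had -0.43 (SE 0.48) in monocytes and Spi1, which encodes PU.1, -0.59 (SE 0.43) in neutrophils. Of 8 acute phase genes, all were tested in hepatocytes, with a median of -0.65 against -0.01, led by Saa2 at -4.50 (SE 1.76) and Saa1 at -2.24 (SE 1.12), both serum amyloid A genes, and neither passed. Both rested on control 2, at 232 and 147 CPM, while Saa1 gave 9.29 and 6.50 CPM in the other control libraries, against 7.51 and 7.89 CPM in knockouts 1 and 3.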

How the data were processed

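The deposited matrices hold UMI counts per gene and barcode (10x 3′ chemistry, per the labels' protocols). Per the file headers the authors ran Cell Ranger 9.0.1 on replicate 3 and version 7.0.1 on the rest. The submitters' processing notes name 9.0.1 and GRCm39. Kept barcodes had 500 UMIs or more, 300 detected genes or more and no more than 20% of UMIs from mitochondrial genes. In replicate 3, whose files list all barcodes, they also had to differ from barcodes with at most 100 UMIs at a false discovery rate of 0.001 in 10000 simulations, and 152 and 125 failed. The cells with the highest Scrublet scores (scanpy 1.11.5) were removed at 0.8% per 1000 cells, 0 to 796 per library. Hashtag counts, listed in the replicate 3 matrices, were used only to mark multiplets.

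A cell was called by the class with the highest mean log marker level, with at least 3 of its markers detected (8 for hepatocytes, with 50 marker UMIs per 10000) and the runner-up of another lineage at most 0.6 of it. These limits were set after marker UMIs were seen, without the 4 genes. UMIs were summed per library and class, levels are CPM of the class total, and a level given for a count of 0 is 3 UMIs of the library's class total. Sums were tested with edgeR 4.0.16 (quasi-likelihood, TMM, filterByExpr, two-sided, Benjamini-Hochberg over all genes of the class), checked on simulated data, with DESeq2 1.42.0 as an alternative. The standard error is the absolute fold change over the square root of F. Classes were compared with each other in 6 pairs.

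Deviations of same-numbered libraries from their group means correlated at 0.21 to 0.22 in monocytes, 0.11 to 0.26 in hepatocytes and 0.13 to 0.50 in lymphocytes for all 3 pairs, so the numbers were taken to pair them there, and at 0.43, 0.26 and -0.03 in neutrophils, where they were not. Deviations from a mean of 3 libraries cancel out, so the 3 correlations of a class are not independent. Libraries of different numbers were not correlated as a baseline, so the pairing is an assumption. Named genes are the 4 genes, in each list the 2 members of lowest p per class and the 5 genes most like each of the 4, and a selection of them is printed. Other genes are named beside a blocked count or as co-transcripts of Slpi and were chosen after their values were seen. The 4 genes and the lists were chosen with earlier results of these data known.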

Additional observations from a re-analysis of the deposited data

Results flagged for a closer look

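Slpi differed in direction between classes. Between same-numbered libraries it was higher in knockout in 3 of 3 in monocytes and lower in 3 of 3 in neutrophils, with log2 fold changes of 2.46 and -0.79. In neutrophils the numbers were not taken to pair the libraries, and the groups overlapped there (1952 to 4730 CPM in controls and 1446 to 2097 CPM in knockouts). The test of the difference itself gave -2.87 (SE 0.89) and did not pass over all genes (edgeR adjusted p = 0.73), and the monocyte value rests largely on 1 cell of knockout 2.

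Barcodes without a cell carried more calprotectin in knockout 3 than in control 3, at 494 against 197 CPM for S100a8 and 749 against 256 CPM for S100a9. With 1 library a group this compares 2 pools of mice and has no replicate check.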

How the results depend on the processing

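The reported count of called genes was 0 in each class, and of 85 recomputed counts 68 were also 0 and 17 were not. Of 327 recomputed fold changes of the 4 genes 271 kept direction and side of the threshold. Of 68 recomputed class levels 63 moved by less than 1 standard deviation over libraries. Where 1 library stood far above the rest, as knockout 2 did for S100a8 in monocytes, this deviation was wide. Few alternatives could then count as moved, so the count says little about such levels. The cause of each change below was not tested. The settings that leave out top cells, hashtag multiplets or both libraries of 1 number, the limit of 5000 UMIs for hepatocytes, the runner-up limit of 0.5 and the class shares without 1 library were chosen after seeing the data.

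With the replicate block, which pairs libraries by number, 10 genes were called in monocytes and 5 in lymphocytes, and the log2 fold change was -0.03 for S100a6 in neutrophils and -0.41 for S100a9 in hepatocytes. With the block and without the cells with most calprotectin and most Slpi, 11 genes were called in monocytes and 2 in hepatocytes, with -0.11 for S100a6 in monocytes, -0.53 for S100a6 in neutrophils and 0.87 for S100a8 in hepatocytes. With the block and without both libraries numbered 1, the calls were 1 in monocytes, 10 in neutrophils, 26 in hepatocytes and 11 in lymphocytes, with 0.36 for S100a8 in hepatocytes. In that fit S100a6 passed in hepatocytes (-2.18, edgeR adjusted p = 3.39e-06), where 26 of 13251 genes were called. In control 2, 1 cell held 64 of the 72 S100a6 UMIs of 38 hepatocytes, and the 10 hepatocytes of knockout 2 held 1. S100a8 (2.54) and S100a9 (1.96) passed in lymphocytes (edgeR adjusted p = 0.00865 and 0.0205), where 11 of 11621 genes were called. Lymphocytes of control 2 and knockout 2 held 0 and 0 S100a8 UMIs and 0 and 1 S100a9 UMIs, so both lymphocyte calls rest on pair 3. The free RNA of knockout 3 also held more calprotectin than that of control 3, and its part in these calls was not tested. With the block and without both libraries numbered 2, the calls were 50 in monocytes and 2 in hepatocytes. The fold changes were -0.81, -1.66 and -0.07 for S100a8, S100a9 and S100a6 in monocytes, -0.62 for S100a6 in neutrophils, -0.37 for S100a9 in hepatocytes and -0.32 for S100a6 in lymphocytes. Of these S100a9 in monocytes passed (edgeR adjusted p = 0.00243), and 1 cell of control 3 held 261 of the 273 UMIs of that library. With the block and without both libraries numbered 3, 9 of 12021 genes were called in hepatocytes. S100a6 was at -2.55 (edgeR adjusted p = 0.0423) and S100a9 at -2.29 there. The hepatocyte of control 2 with 64 of its 72 S100a6 UMIs is part of this fit too. In neutrophils S100a8 was at -0.22 and S100a9 at -0.24. With the block and a runner-up class at most 0.5 of the best, 4 genes were called in monocytes, with -0.41 for S100a9 in hepatocytes and -0.02 for S100a6 in lymphocytes. With the block and hashtag multiplets left out, 12 genes were called in monocytes, Slpi among them (1.5, edgeR adjusted p = 8.57e-04). Beside Slpi in monocytes, the block over all 3 pairs changed no call of the 4 genes.

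With no filter on low counts and no block, 24 of 18879 genes were called in monocytes, 5 of 14772 in neutrophils and 1 of 23769 in lymphocytes. S100a8 (4.03, edgeR adjusted p = 1.19e-05), S100a9 (2.11, 0.0491) and Slpi (2.37, 0.0330) passed in monocytes there. Of the 15 monocytes of knockout 2, however, 1 held 171 of 172 S100a8 and all 72 S100a9 UMIs. Another held 73 of 74 Slpi UMIs. The stricter gate gave -1.54 for S100a8 and -3.40 for S100a9 in monocytes, and it could not be fitted in neutrophils and hepatocytes. A mitochondrial share of at most 10% gave -1.40, -2.52 and -0.09 for S100a8, S100a9 and S100a6 in monocytes and -0.37 for S100a6 in neutrophils. Without both libraries numbered 2 these were -1.26, -2.42, -0.07 and -0.45, with -0.34 for S100a6 in lymphocytes. Without the cells with most calprotectin and most Slpi, S100a6 was -0.08 in monocytes and -0.19 in neutrophils and S100a8 was 1.44 in hepatocytes. Among cells with no neutrophil marker UMI, S100a8 was 0.84 in hepatocytes and S100a6 -0.03 in lymphocytes. A runner-up class at most 0.5 of the best gave -0.02 for S100a6 in lymphocytes.

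With 1 library left out at a time, 0 to 1 genes were called in monocytes and 0 in the other classes. The log2 fold changes then ranged, in monocytes, from -1.12 to 6.23 for S100a8, -2.23 to 5.95 for S100a9, -0.28 to 0.54 for S100a6 and 0.97 to 2.98 for Slpi. In neutrophils they ranged from -0.10 to 0.58 for S100a8, -0.15 to 0.50 for S100a9, -0.44 to 0.74 for S100a6 and -1.01 to -0.52 for Slpi. In hepatocytes they ranged from -3.21 to -0.09 for S100a8, -2.40 to 0.84 for S100a9, -3.84 to -1.45 for S100a6 and -3.70 to 0.27 for Slpi. In lymphocytes they ranged from -0.43 to 1.91 for S100a8, 0.79 to 1.68 for S100a9, -0.17 to 0.26 for S100a6 and 0.61 to 2.98 for Slpi.

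As a mean over cells, the median level over libraries in neutrophils was 42332 CPM for S100a8 and 66150 CPM for S100a9, and 8.38 CPM for S100a9 in hepatocytes. With the stricter gate, which left 3 libraries, S100a8 and S100a9 in neutrophils were at 100483 and 145945 CPM. In barcodes of knockout 3 with at most 50 UMIs, S100a8, S100a9, S100a6 and Slpi were at 898, 1328, 299 and 92.6 CPM. Depth limits the libraries numbered 2, where 10 to 38 hepatocytes and 15 to 27 monocytes stand behind a value.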
